A study of Homo sapiens with 12 samples.

Results

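The genes described here are 9 of the 19460 genes in the RNA table, chosen by name for their part in presenting peptides on major histocompatibility complex (MHC) class I molecules. They are the heavy chains HLA-B, HLA-C, HLA-E and HLA-F, the light chain B2M, the peptide transporter subunits TAP1 and TAP2, the loading factor TAPBP (tapasin) and the transcriptional activator NLRC5. All 9 were found by symbol and all 9 passed the filter on low values, a mean of at least 0.5 FPKM (fragments per kilobase of transcript, scaled to library size). They were measured in T-47D, an established estrogen receptor-positive human breast cancer cell line obtained from ATCC and labelled wild type. The cells had received palbociclib, an inhibitor of the cell cycle kinases CDK4 and CDK6, at 1 µM for 24 h, or DMSO, its solvent. RNA was sequenced from 3 libraries per treatment, and open chromatin was measured by ATAC-seq, in which a transposase cuts accessible DNA, in another 3 libraries per treatment. The DMSO control of the ATAC-seq experiment was 0.1%. All groups share this 1 cell line. The series' design text calls the libraries of both assays biological replicates; the titles of the RNA libraries give a replicate number only.

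Class I molecules carry peptides from inside the cell to its surface, where CD8 T cells read them. Proteasomes cut proteins into peptides, the TAP1/TAP2 pump moves the peptides into the endoplasmic reticulum, and tapasin holds the empty heavy chain and light chain next to the pump until a peptide fits. In epithelial and tumor cells the genes are expressed at a basal level, and interferons raise that level through IRF factors and through NLRC5, which acts on an enhancer module shared by the class I promoters.

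The epithelial label was checked against markers, and 9 of 9 listed luminal markers were expressed. Their summed level was 5593 to 6118 FPKM under DMSO and 7516 to 8296 FPKM under palbociclib. By the limma test described below 8 of the 9 rose, beside 20.9% of all genes tested. EPCAM had a log2 change of -0.14 (limma adjusted p = 0.0544). For EPCAM the authors' deposited DESeq2 table gave -0.14 (adjusted p = 0.0223). Of 12 immune cell markers 4 were in the table, and their summed level was 1.58 to 2.22 FPKM under DMSO and 1.89 to 2.07 FPKM under palbociclib. PTPRC and CD3E, which define leukocytes and T cells, were not among the genes listed. Of 8 fibroblast and endothelial markers 3 were in the table, and COL1A1, at 23.7 FPKM under DMSO and 25.1 FPKM under palbociclib, made up nearly all of their sum. The part of these markers in the results was not tested. All 4 proliferation genes used to check the treatment (MKI67, RRM2, E2F1 and CCNE2) were lower in every palbociclib library. FPKM carry no depth of their own. In the authors' deposited table the mean normalized count of the 9 genes was lowest for NLRC5 (349) and next lowest for HLA-F (794). The ATAC-seq libraries held 12830062 to 18250496 counts in peaks.

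The sequences upstream of the starts were searched for short motifs of control elements. RefSeq promoter entries (GRCh38.p14) matched 7 of the 9 genes, and HLA-E and NLRC5 are only named. Of the 6 genes shown, HLA-C, TAP1 and TAPBP rose, and HLA-B, HLA-F and B2M did not pass the test. Their 250 bases before the start are given 5′ to 3′ on the gene's own strand. They lie at chr6:31357180-31357429 (minus strand) for HLA-B, chr6:31272093-31272342 (minus) for HLA-C, chr6:29723184-29723433 (plus) for HLA-F, chr15:44711267-44711516 (plus) for B2M, chr6:32853705-32853954 (minus) for the first of the 2 annotated TAP1 starts, and chr6:33314079-33314328 (minus) for TAPBP. Capitals mark matches on either strand to the CCAAT box (CCAAT, bound by NF-Y), the core of the cyclic AMP response element (TGACG), the interferon-stimulated response element core (GAAANNGAA), the interferon gamma activated site (TTCNNNGAA) and the NF-kB consensus motif; adjoining or overlapping matches run together.
HLA-B: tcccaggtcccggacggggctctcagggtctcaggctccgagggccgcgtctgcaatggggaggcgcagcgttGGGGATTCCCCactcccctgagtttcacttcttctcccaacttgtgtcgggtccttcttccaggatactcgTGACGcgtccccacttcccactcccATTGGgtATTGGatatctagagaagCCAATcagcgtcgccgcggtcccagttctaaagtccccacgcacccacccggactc
HLA-C: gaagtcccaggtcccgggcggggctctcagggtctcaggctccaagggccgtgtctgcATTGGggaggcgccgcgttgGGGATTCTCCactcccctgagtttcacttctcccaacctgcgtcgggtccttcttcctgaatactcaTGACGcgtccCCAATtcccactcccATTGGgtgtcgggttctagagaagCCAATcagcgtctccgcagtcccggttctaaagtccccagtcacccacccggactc
HLA-F: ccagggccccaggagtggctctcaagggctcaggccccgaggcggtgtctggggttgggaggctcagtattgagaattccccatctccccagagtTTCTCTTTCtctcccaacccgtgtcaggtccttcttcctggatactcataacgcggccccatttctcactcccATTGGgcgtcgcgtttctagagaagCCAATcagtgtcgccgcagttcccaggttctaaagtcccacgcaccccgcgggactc
B2M: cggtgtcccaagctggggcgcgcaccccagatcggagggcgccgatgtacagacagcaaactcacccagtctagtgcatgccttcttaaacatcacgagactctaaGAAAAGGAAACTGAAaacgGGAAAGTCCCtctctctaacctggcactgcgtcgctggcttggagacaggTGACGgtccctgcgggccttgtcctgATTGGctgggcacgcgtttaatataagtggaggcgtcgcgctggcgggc
TAP1: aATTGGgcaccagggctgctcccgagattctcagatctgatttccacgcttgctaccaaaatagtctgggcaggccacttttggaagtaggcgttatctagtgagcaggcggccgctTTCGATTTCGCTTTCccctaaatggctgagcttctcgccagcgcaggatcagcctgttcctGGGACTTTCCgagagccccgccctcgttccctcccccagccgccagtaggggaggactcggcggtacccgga
TAPBP: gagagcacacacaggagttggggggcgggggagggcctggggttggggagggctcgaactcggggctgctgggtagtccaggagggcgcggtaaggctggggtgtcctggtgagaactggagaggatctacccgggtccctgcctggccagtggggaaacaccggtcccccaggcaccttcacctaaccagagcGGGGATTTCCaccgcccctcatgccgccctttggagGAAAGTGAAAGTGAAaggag

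The HLA-B and HLA-C promoters were identical at 89.0% of aligned bases, against 79.8% for HLA-B with HLA-F and 78.2% for HLA-C with HLA-F. HLA-B and HLA-C each held CCAAT boxes, TGACG and the NF-kB motif, the nearest CCAAT lying 56 bases before the start in both. Neither held GAAANNGAA, but both held the looser form AANNGAAA, which 20.3% of all promoters of this length hold and which is not capitalised. HLA-F held 2 CCAAT boxes and GAAANNGAA, and neither TGACG nor the NF-kB motif was found in its window. B2M held 1 CCAAT box, TGACG, the NF-kB motif and 2 overlapping GAAANNGAA matches. TAP1 at its first start and TAPBP each held 2 GAAANNGAA matches and the NF-kB motif. In TAPBP the response element matches began 20 and 14 bases before the start. The window of the second TAP1 start, not printed, held neither motif but 1 TTCNNNGAA match. TAP2, not printed, held TGACG and 1 GAAANNGAA match. Over all 35116 promoters of 250 bases, 32.0% held CCAAT, 21.2% TGACG, 6.88% GAAANNGAA, 6.57% TTCNNNGAA and 9.96% the NF-kB motif. The NF-kB motif was found in genes that rose and in genes that did not pass. A match is a description of the letters and not a measured binding site, and its relation to the RNA changes was not tested.

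After 24 h of palbociclib the class I genes differed little from DMSO: HLA-C, HLA-E, TAP1 and TAPBP rose by small amounts and the other 5 did not pass the test. The heavy chains HLA-C and HLA-E rose 1.11-fold and 1.14-fold, the pump subunit TAP1 1.11-fold and tapasin 1.17-fold. None of the 9 fell. The test was limma on log2(FPKM + 1), with Benjamini-Hochberg adjustment over 15869 genes and a threshold of 0.05, and on that scale the change of genes at low FPKM is understated. The count of 4 of 9, or 44.4%, stands beside 43.7% of all genes tested that passed in either direction, 20.9% higher and 22.9% lower. The share of class I genes called in either direction was thus near the background. All 4 calls were rises, so the 44.4% also stands beside the 20.9% of all genes called higher. That difference, on 9 genes, was not tested. The median change of the 9 genes was 0.08 on the log2 scale, against 0.00 for all genes tested, and the median size of change over all genes, without sign, was 0.16. The same 4 genes had 3 palbociclib libraries above all 3 DMSO libraries, against 54.7% of all genes tested whose groups did not overlap in either direction.

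**Figure D1:**
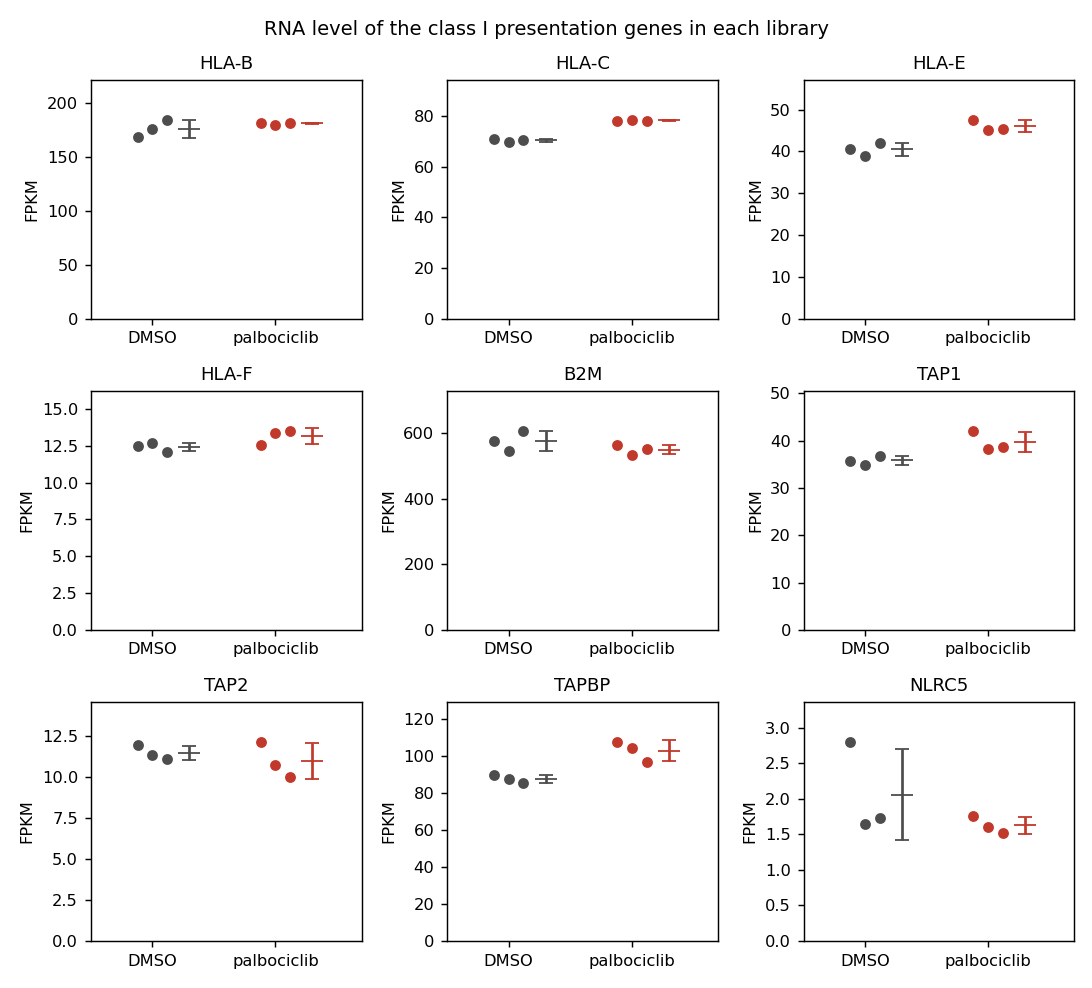
RNA level in FPKM (vertical axes, starting at 0) of each of the 9 genes in the 3 DMSO libraries (grey) and the 3 palbociclib libraries (red), replicates 1 to 3 from left to right; the bar beside each group is the mean with 1 SD (n = 3). The groups are apart for HLA-C, HLA-E, TAP1 and TAPBP, and DMSO replicate 1 of NLRC5 (2.80 FPKM) stands above the other libraries.

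The 9 genes kept the same order of RNA level per length in both treatments. B2M was highest, followed by HLA-B, TAPBP, HLA-C, HLA-E, TAP1, HLA-F, TAP2 and NLRC5. The lowest library of each gene lay above the highest library of the next gene in both treatments, so no neighbours in the order overlapped. By ratio, the closest pair under DMSO was HLA-F and TAP2, at 12.4 and 11.5 FPKM. Under palbociclib it was HLA-E and TAP1, at 46.0 and 39.7 FPKM. The DMSO means ran from 577.6 FPKM for B2M to 2.06 FPKM for NLRC5.

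HLA-B (chr6:31353875-31357179, minus strand) and HLA-C (chr6:31268749-31272092, minus strand) encode classical heavy chains, which present peptides to CD8 T cells. HLA-C measured 70.8, 69.8 and 70.4 FPKM in the DMSO libraries and 78.2, 78.6 and 78.0 FPKM in the palbociclib libraries. Every palbociclib library lay above every DMSO library, and the SD within the groups was 0.499 and 0.282 FPKM (n = 3). The change was 0.15 on the log2 scale (SE 0.03, 95% interval 0.09 to 0.21), with an adjusted p of 0.0025 in limma. HLA-B measured 167.9, 175.2 and 184.3 FPKM under DMSO and 180.9, 179.7 and 181.4 FPKM under palbociclib. The groups overlapped, since DMSO replicate 3 was the highest of all 6 libraries. The log2 change was 0.04 (95% interval -0.04 to 0.13; adjusted p = 0.415). Centring each library on its median gene gave 0.14 (adjusted p = 0.0193), past the threshold. Without DMSO replicate 1 the change was 0.0078 (adjusted p = 0.887), and without DMSO replicate 3 it was 0.075 (adjusted p = 0.109). The difference between the changes of HLA-B and HLA-C was not tested. The heavy chain genes are similar in sequence and highly polymorphic, so reads that fit several of them could be assigned to another copy, and their single levels are uncertain to that extent.

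HLA-E (chr6:30489509-30494194, plus strand) encodes a nonclassical heavy chain that shows leader peptides of other class I molecules to the NKG2A receptor of natural killer cells. It measured 40.5, 38.9 and 42.1 FPKM under DMSO and 47.6, 45.1 and 45.3 FPKM under palbociclib. All 3 palbociclib libraries were above the DMSO libraries. The log2 change was 0.18 (SE 0.04, 95% interval 0.09 to 0.27; limma adjusted p = 0.00723). HLA-F (chr6:29723434-29738532, plus strand), a nonclassical heavy chain that also occurs without peptide, measured 12.5, 12.7 and 12.1 FPKM under DMSO and 12.5, 13.4 and 13.5 FPKM under palbociclib. Palbociclib replicate 1 fell among the DMSO libraries, and the log2 change of 0.08 (95% interval -0.03 to 0.19) did not pass (adjusted p = 0.222). It passed under quantile normalization (0.18, adjusted p = 0.0151) and when each library was centred on its median gene (0.17, adjusted p = 0.0148). An antisense gene, HLA-F-AS1, lies over HLA-F. Whether the authors' counting used the strand is not given in the sources used here, so reads of the pair cannot be told apart.

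B2M (chr15:44711517-44718145, plus strand) encodes the light chain that every class I heavy chain needs to reach the surface. It measured 577.4, 547.4 and 608.0 FPKM under DMSO and 563.8, 534.5 and 552.7 FPKM under palbociclib. The groups overlapped, with the highest library in DMSO and the lowest in palbociclib. The log2 change was -0.07 (95% interval -0.17 to 0.03; limma adjusted p = 0.228). So HLA-C and HLA-E rose while their partner chain did not pass the test in either direction. The intervals of HLA-C and HLA-E lie above that of B2M, although the difference between genes was not itself tested.

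TAP1 (chr6:32845209-32853704, minus strand) and TAP2 (chr6:32821831-32838739, minus strand) encode the subunits of the peptide pump. TAP1 measured 35.8, 35.0 and 36.9 FPKM under DMSO and 42.1, 38.3 and 38.6 FPKM under palbociclib. All palbociclib libraries were above the DMSO libraries, with replicate 1 the highest. The log2 change was 0.14 (SE 0.05, 95% interval 0.04 to 0.24; limma adjusted p = 0.0344). The call was lost without DMSO replicate 1 (adjusted p = 0.0831), without DMSO replicate 2 (0.106), without palbociclib replicate 1 (0.102) and in limma without a trend (0.0697), with a log2 change of 0.10 to 0.14 in these refits. TAP2 measured 11.9, 11.4 and 11.1 FPKM under DMSO and 12.2, 10.7 and 10.0 FPKM under palbociclib. Its groups overlapped, palbociclib holding both the highest and the lowest library, and the log2 change was -0.07 (95% interval -0.23 to 0.09; adjusted p = 0.483). The sign of TAP2 and of B2M depended on the scaling of the libraries: centring each library on its median gene turned them to 0.03 and 0.03, neither past the threshold.

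TAPBP (chr6:33299694-33314078, minus strand) had the largest rise of the 9 genes. It measured 89.7, 87.8 and 85.3 FPKM under DMSO and 107.7, 104.3 and 96.7 FPKM under palbociclib. All palbociclib libraries were above the DMSO libraries. The log2 change was 0.23 (SE 0.04, 95% interval 0.13 to 0.33; limma adjusted p = 0.00328), which placed it at percentile 82.7 of the changes of all genes tested. HLA-E stood at percentile 77.4, HLA-C at 74.0 and TAP1 at 72.5.

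NLRC5 (chr16:56989557-57083520, plus strand), the class I transactivator, had the widest spread among its DMSO libraries, a coefficient of variation of 31.3% against 0.71% to 5.24% for the other 8 genes. It measured 2.80, 1.65 and 1.72 FPKM under DMSO and 1.76, 1.60 and 1.52 FPKM under palbociclib. DMSO replicate 1 was high, and the other 5 libraries lay close together. The log2 change was -0.20 (95% interval -0.51 to 0.11; limma adjusted p = 0.269), and it was -0.03 (adjusted p = 0.784) without DMSO replicate 1. The same library was also the highest for IFNAR2, a subunit of the type I interferon receptor, at 3.54 FPKM against 1.42 and 1.27 FPKM in the other DMSO libraries.

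**Figure D2:**
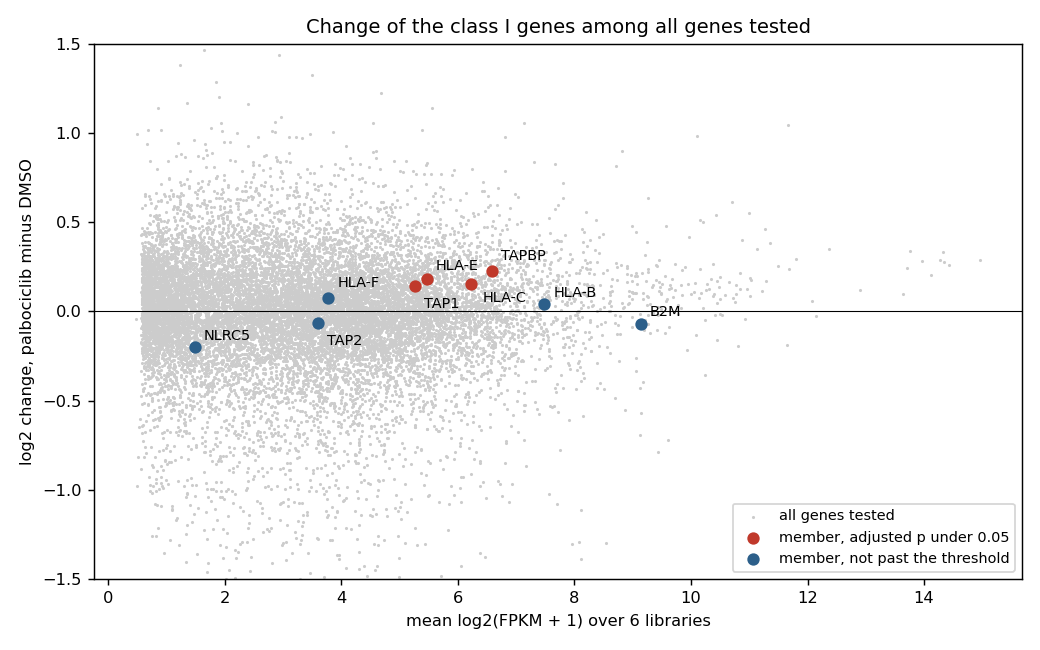
Log2 change (vertical axis, palbociclib minus DMSO) against the mean log2(FPKM + 1) over 6 libraries (horizontal axis) for all genes tested (grey) and the 9 class I genes, in red where the adjusted p was under 0.05; 293 genes with a change beyond 1.5 in either direction are outside the frame. The class I genes lie within the cloud of all genes, TAPBP highest at 0.23 and NLRC5 lowest at -0.20.

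The authors' deposited table, which comes from a DESeq2 fit, called the same 4 genes higher at an adjusted p under 0.05 and no other. Its log2 changes were 0.15 for HLA-C, 0.18 for HLA-E, 0.15 for TAP1 and 0.23 for TAPBP. Its adjusted p was 6.3e-06 for TAPBP, 4.9e-04 for HLA-E, 0.0019 for HLA-C and 0.018 for TAP1 in the authors' deposited table. For NLRC5 the authors' deposited table gave -0.33 (adjusted p = 0.162).

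Lists of other genes covered the steps before and after the pump. They also covered promoter factors, interferon receptors and kinases, class I-like molecules and class II genes. Of 59 genes on all these lists with RNA values, 56 were tested. Of the 56, 20 rose (35.7%) and 6 fell (10.7%), beside 20.9% and 22.9% of all genes. The steps around the pump were only a part of this set, and no list was tested as a set. The median log2 change of the 56 genes was 0.05, against 0.00 over all genes.

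Of the proteasome subunits and activators induced by interferon, 1 of 5 rose and 1 fell (40% called), beside 43.7% of all genes. PSME1, a subunit of the proteasome activator PA28, rose from 95.3 to 111.5 FPKM (log2 change 0.22, limma adjusted p = 0.00146). Its partner PSME2 had a log2 change of 0.06 (adjusted p = 0.189), which was 0.15 and past the threshold under median centring (0.0056). PSMB9, a catalytic subunit of the immunoproteasome that is encoded beside TAP1, fell by 0.16 on the log2 scale, from 7.55, 7.51 and 7.01 FPKM to 6.60, 6.50 and 6.28 FPKM (adjusted p = 0.0391). That call was lost in 8 of 12 alternatives, among them the fits without DMSO replicate 1 (adjusted p = 0.111), without DMSO replicate 2 (0.11) and without palbociclib replicate 1 (0.0653), 2 (0.085) or 3 (0.0978). The change was -0.08 under quantile normalization (adjusted p = 0.256) and -0.07 under median centring (0.336). In the authors' deposited table PSMB9 had an adjusted p of 0.207. PSMB8, another catalytic subunit, had a log2 change of -0.12 (adjusted p = 0.0762, and 0.0497 without DMSO replicate 1). PSMB10, the third, had a log2 change of 0.23 (adjusted p = 0.119, and 0.0288 without DMSO replicate 1, 0.0456 under quantile normalization and 0.0339 under median centring). TAP1 and PSMB9 are neighbours that are divergently transcribed, and their log2 changes were 0.14 and -0.16.

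Of 5 peptidases that trim or destroy peptides, 2 rose and 1 fell (60% called), beside 43.7% of all genes. ERAP1, which trims peptides in the endoplasmic reticulum, rose from 9.24 to 10.8 FPKM (log2 change 0.21, limma adjusted p = 0.00737). LNPEP, an endosomal aminopeptidase, rose by 0.16 in log2 units (adjusted p = 0.0483). That call was lost without DMSO replicate 1 (0.128), DMSO replicate 2 (0.138), palbociclib replicate 1 (0.0968) or palbociclib replicate 3 (0.13), in limma without a trend (0.0825) and without the filter on low values (0.0601). THOP1, a cytosolic peptidase that degrades peptides, fell by 0.17 on the log2 scale (adjusted p = 0.0145), a call lost without DMSO replicate 2 (0.0544) or palbociclib replicate 1 (0.0501), and under median centring, where the change was -0.08 (0.201).

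Of the chaperones and editors of the endoplasmic reticulum 4 of 7 rose and none fell (57.1% called). Of all genes, 43.7% were called in either direction and 20.9% higher. HSPA5, a general chaperone (BiP), measured 444.7, 410.5 and 429.8 FPKM under DMSO and 628.8, 592.2 and 569.5 FPKM under palbociclib, a log2 change of 0.48 (limma adjusted p = 6.0e-05). PDIA3, which pairs with tapasin in the loading complex, rose by 0.26 on the log2 scale (adjusted p = 0.00131). HSP90B1 rose by 0.22 (adjusted p = 0.00503). CALR (calreticulin), also of the loading complex, rose by 0.15 (adjusted p = 0.0158), a call lost without DMSO replicate 2 (0.0599) or palbociclib replicate 1 (0.056) and in limma without a trend (0.0503). TAPBPL, a peptide editor related to tapasin, was low at 1.01 FPKM in both groups, and its log2 change was 0.01 (adjusted p = 0.942).

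**Figure D3:**
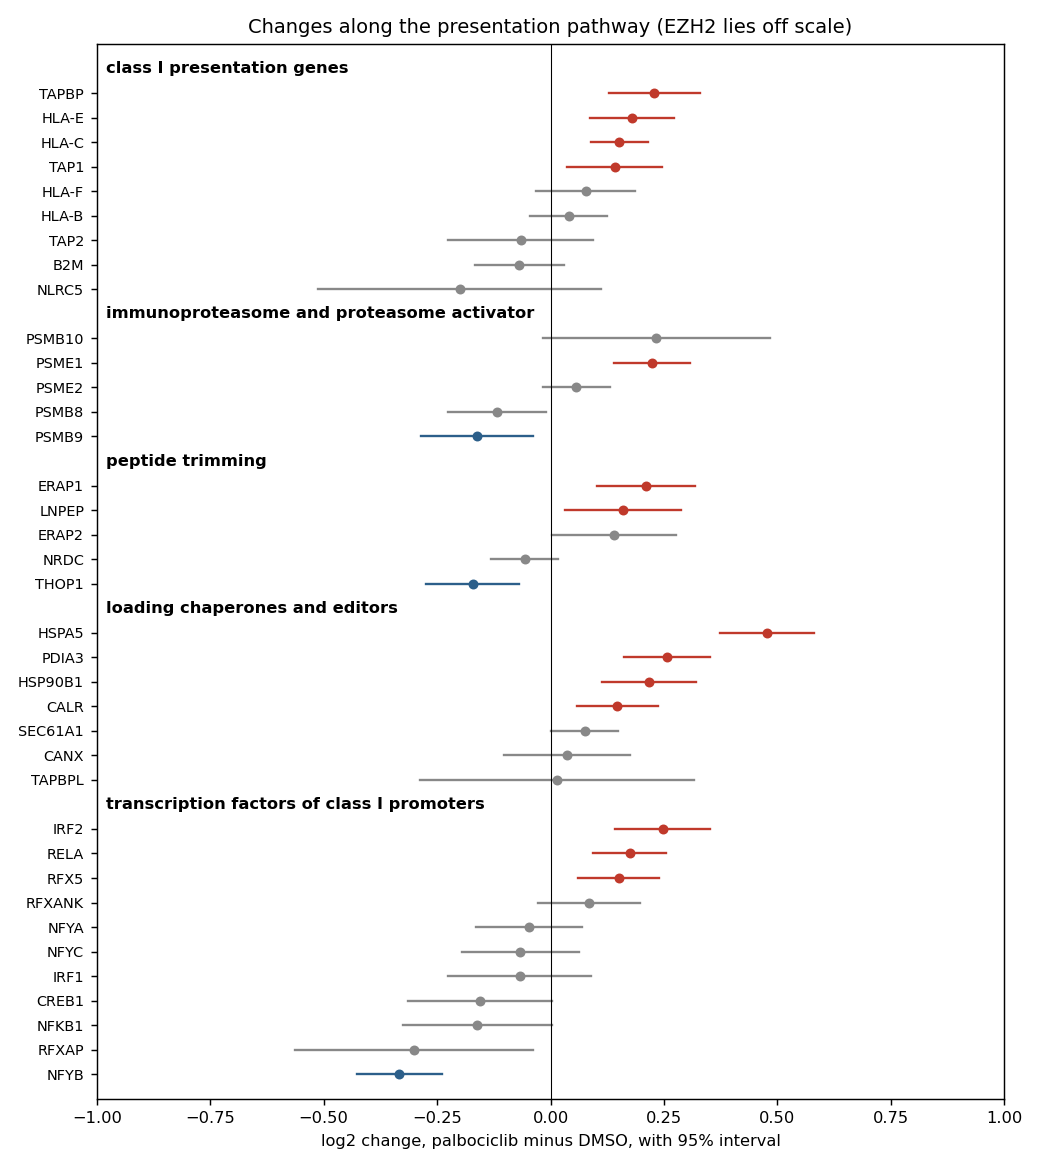
Log2 change (horizontal axis, palbociclib minus DMSO) with its 95% interval from limma for the class I genes and 4 lists of the pathway, in red where higher, blue where lower and grey where the adjusted p was 0.05 or more; EZH2 (-1.55) is off the scale, and not every listed gene is drawn. Among the chaperones HSPA5 reaches 0.48, and the class I genes lie between -0.20 and 0.23.

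Of the factors known to act on class I promoters, 13 of 14 were tested, and CIITA was under the filter. Of the 13, 3 rose and 2 fell (38.5% called), beside 43.7% of all genes. IRF2 rose by 0.25 in log2 units (adjusted p = 0.00284), RELA, a subunit of NF-kB, by 0.17 (adjusted p = 0.00402), and RFX5, which recruits NLRC5 to the promoter, by 0.15 (adjusted p = 0.0137). NFYB, a subunit of the factor that binds the CCAAT box marked above, fell by 0.33 (adjusted p = 2.9e-04). EZH2, the methyltransferase of Polycomb repressive complex 2 and a gene of proliferating cells, fell from 26.8 to 8.50 FPKM (log2 change -1.55, adjusted p = 1.3e-08). IRF1, a factor induced by interferon, had a log2 change of -0.07 (adjusted p = 0.461). Of 9 interferon receptor chains and their kinases, 2 rose and none fell (22.2% called). Of all genes, 43.7% were called in either direction and 20.9% higher. JAK1 rose by 0.36 (adjusted p = 2.6e-05) and IFNGR2 by 0.21 (adjusted p = 0.0208). The IFNGR2 call was lost without palbociclib replicate 1 (0.0655) or 2 (0.061).

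Among class I-like molecules, which share the fold but mostly not the peptide, 5 of 10 rose and 2 fell, beside 43.7% of all genes called. FCGRT, the neonatal Fc receptor, rose by 0.38 in log2 units (adjusted p = 0.00251), and AZGP1, a secreted relative, rose from 219.0 to 265.7 FPKM (log2 change 0.28, adjusted p = 5.1e-04). HFE, the hemochromatosis protein, rose by 0.24 (adjusted p = 0.00292). ULBP1, a ligand of the natural killer receptor NKG2D, went down from 1.55 to 0.965 FPKM (log2 change -0.38, adjusted p = 0.00434), and the authors' deposited table gave -0.68. Of 7 class II genes tested 3 rose and none fell (42.9% called). Of all genes, 43.7% were called in either direction and 20.9% higher. HLA-DMA, the peptide editor of class II, rose by 0.31 (adjusted p = 0.00105). HLA-DRB1 rose by 0.25 (adjusted p = 0.0214) and CD74, the invariant chain, by 0.20 (adjusted p = 0.00574). The HLA-DRB1 call was lost without DMSO replicate 2 (0.0734) or palbociclib replicate 1 (0.0596).

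The genes whose RNA followed the mean profile of the 5 class I chains most closely were sought over the 6 libraries. The profile was the mean centred log2(FPKM + 1) of HLA-B, HLA-C, HLA-E, HLA-F and B2M. It was -0.048, -0.061 and -0.0052 under DMSO and 0.042, 0.029 and 0.043 under palbociclib. B2M itself did not follow this mean, at 0.035, -0.042 and 0.11 under DMSO and 0.00077, -0.076 and -0.028 under palbociclib. A gene close to the profile is thus not close to every chain. By Pearson's r 9880 genes with a mean of at least 5 FPKM were compared with the profile. Among the 5 closest were FAM174A (r = 0.997), CHPF (0.994), C6orf120 (0.994) and COG3 (0.992). The libraries fall into the treatment groups, so these values mostly share the difference between groups and describe likeness only.

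ATAC-seq peaks were linked to a gene where they overlapped it or lay within 5 kb, on GRCh38. The linked peaks numbered 12 and belonged to HLA-F, TAP1, TAP2, TAPBP and NLRC5. No peak of the shared peak set was linked to HLA-B, HLA-C, HLA-E or B2M at this distance. Accessibility at these genes was therefore not tested. By edgeR's quasi-likelihood test over 38121 peaks, 1 of the 12 passed at an adjusted p under 0.05, beside 11.9% of all peaks. The groups did not overlap at 2 of the 12, beside 28.3% of all peaks.

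None of the 4 promoter peaks, those within 1 kb of a start, passed the test. Values are CPM, counts scaled to library size with TMM factors. The SE of a peak's change, here and below, is approximate, worked back from the change and the edgeR test statistic. The HLA-F promoter peak (chr6:29722943-29723880) contains the whole HLA-F sequence printed above and measured 39.8, 41.9 and 39.3 CPM under DMSO and 45.2, 43.7 and 35.6 CPM under palbociclib. Palbociclib held both the highest and the lowest library, and the log2 change was 0.04 (SE 0.08, adjusted p = 0.772). At TAPBP, the gene with the largest rise in RNA, the peak before the start (chr6:33314341-33315339) measured 115.4, 109.4 and 112.2 CPM under DMSO and 117.7, 121.7 and 105.6 CPM under palbociclib. Its log2 change was 0.04 (SE 0.05, adjusted p = 0.72). The peak inside the gene near its start (chr6:33312588-33313329) had a log2 change of -0.05 (SE 0.08, adjusted p = 0.75), with overlapping groups. The NLRC5 promoter peak (chr16:56989186-56989923) measured 25, 23.8 and 27.0 CPM under DMSO and 20.8, 25.4 and 25.7 CPM under palbociclib, a log2 change of -0.08 (SE 0.09, adjusted p = 0.654). A rise in TAPBP RNA thus stood beside no called change at either of its promoter peaks.

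**Figure D4:**
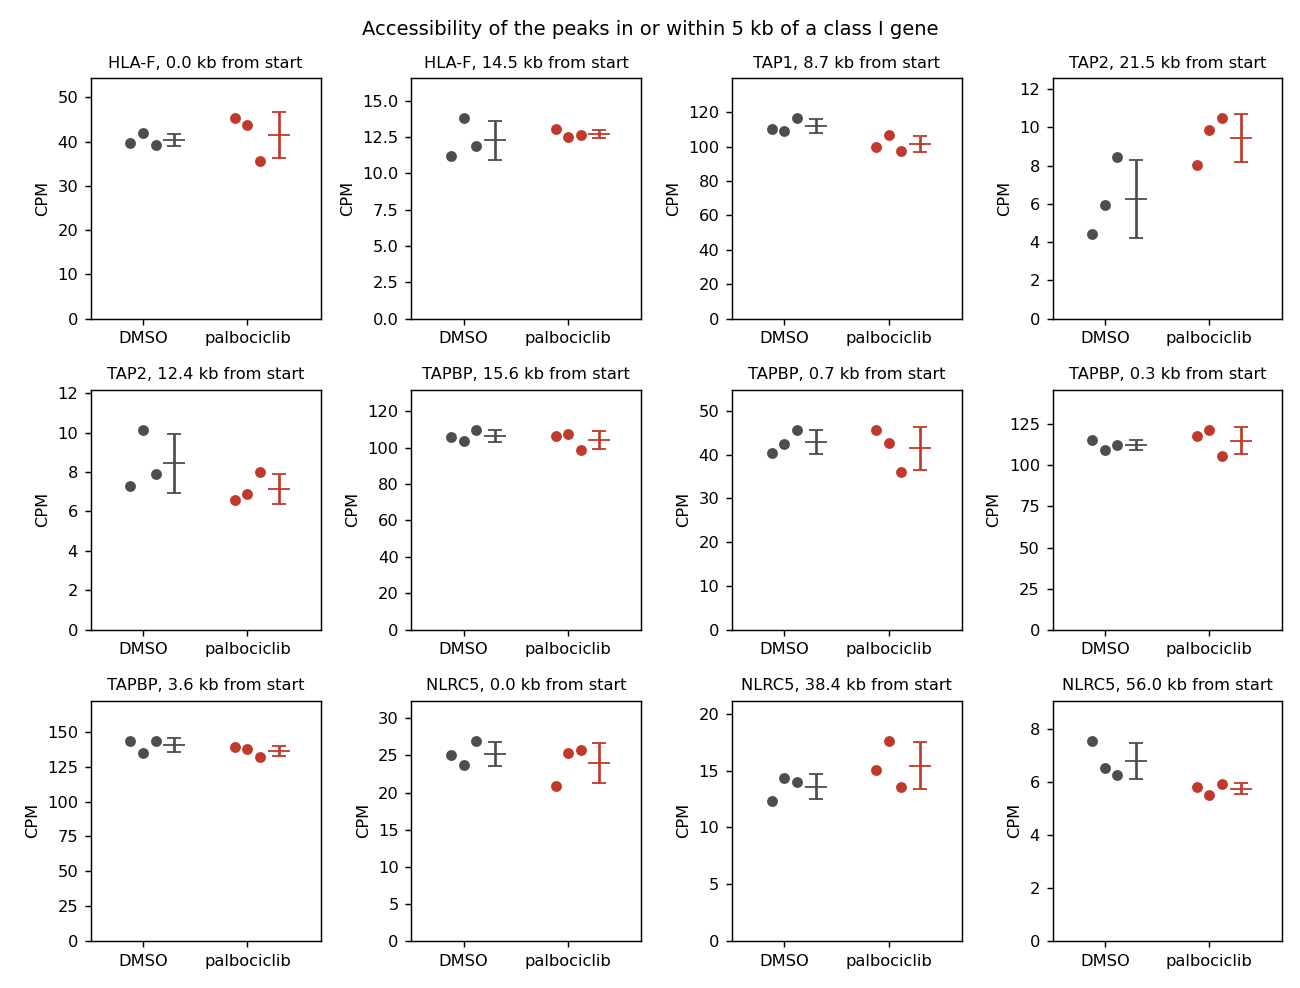
Accessibility in TMM-scaled CPM (vertical axes, starting at 0) of the 12 linked peaks in the 3 DMSO (grey) and 3 palbociclib (red) ATAC-seq libraries, replicates 1 to 3 from left to right, with the mean and 1 SD (n = 3) beside each group; titles give the gene and the distance from its start. The TAP2-linked peak beyond the gene's end is the one that passed the test, at 6.26 CPM under DMSO and 9.45 CPM under palbociclib.

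The peak that passed lies past the end of TAP2, over the start of HLA-DOB, a class II editor (chr6:32816669-32817210). It measured 4.40, 5.92 and 8.46 CPM under DMSO and 8.03, 9.86 and 10.5 CPM under palbociclib. The groups overlapped, since palbociclib replicate 1 was below DMSO replicate 3. Its log2 change was 0.58 (SE 0.17, edgeR adjusted p = 0.0122), on counts of 56 to 147 per library. The call was lost without DMSO replicate 1 (adjusted p = 0.138), without DMSO replicate 2 (0.0842) and in DESeq2 (0.0614). The peak linked to TAP1 covers the start of PSMB8 (chr6:32844014-32844969) and had 3 palbociclib libraries (100.1, 106.9 and 97.7 CPM) below the DMSO libraries (110.2, 109.4 and 116.4 CPM). Its log2 change was -0.14 (SE 0.05, adjusted p = 0.0656), and it passed without palbociclib replicate 2 (0.034). PSMB8 RNA had a log2 change of -0.12, as given above.

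Splicing was described from the authors' rMATS tables, which count reads for the inclusion and the skipping form of each event. The 9 genes had 80 events, of which 21 in 7 genes were tested; HLA-C and NLRC5 had none. An event was tested where its libraries averaged 20 reads or more and the rarer form made up 5% of them or more. No event passed edgeR's quasi-likelihood test of inclusion at an adjusted p under 0.05, beside 0.35% of all events tested. At an unadjusted p under 0.05 there was 1 event of 21, beside 8.53% of all events tested. limma on the log2 odds of inclusion called 0 events over all genes, so it says nothing of the class I genes. The mean inclusion level moved by under 0.05 in 20 of the 21.

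The exception was a TAP1 event of the type scored as mutually exclusive exons (chr6:32848652-32848840 with chr6:32848990-32849118). Its level was 0.596, 0.555 and 0.588 under DMSO and 0.607, 0.657 and 0.648 under palbociclib, with the groups apart. The unadjusted p was 8.5e-04 and the adjusted p 0.17. The second of these exons was included at a level of 1 in every DMSO library when scored as a skipped exon, so the level of this event does not describe exclusive use of either exon. The smallest adjusted p of the other genes was 0.459 for TAPBP (a retained intron), 0.468 for B2M (a retained intron), 0.649 for HLA-B (a retained intron), 0.82 for TAP2 (a retained intron), 0.91 for HLA-F (a skipped exon) and 0.922 for HLA-E. All 4 HLA-B events tested were retained introns, with mean levels from 0.01 to 0.14 under DMSO.

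Of the 80 events 3 had an FDR under 0.05 in the authors' deposited table, beside 2.47% of all events there, and each of the 3 missed 1 of the minimums for testing, the TAPBP event that on the rarer form and the NLRC5 events that on reads. The TAPBP exon at chr6:33304128-33304217, of 90 bases, was included at 0.843, 0.871 and 0.928 under DMSO and 0.941, 0.943 and 0.961 under palbociclib. All palbociclib libraries were higher, and the authors' deposited table gave an FDR of 0.00627. The skipping form was 4.56% of its reads. Without the minor-form minimum edgeR gave an adjusted p of 0.763.

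The other 2 events overlap each other inside NLRC5. The intron at chr16:57028156-57028301 had 0, 0 and 1 retaining reads under DMSO and 10, 3 and 6 under palbociclib, against 4, 10 and 6 spliced reads and 8, 9 and 6 spliced reads. The level per library was thus 0, 0 and 0.063 under DMSO and 0.336, 0.119 and 0.288 under palbociclib. The authors' deposited table gave an FDR of 2.8e-04, whereas edgeR with a minimum of 10 reads gave a log2 odds change of 3.56 with an adjusted p of 0.36. A longer 5′ splice form that ends within that intron (chr16:57028072-57028203) had 0, 0 and 1 reads under DMSO and 5, 4 and 4 under palbociclib, and its FDR in the authors' deposited table was 0.00164. Both events use the same spliced reads and are not independent. They also lie within an ATAC-seq peak inside NLRC5 (chr16:57027995-57028672), which measured 12.3, 14.4 and 14.0 CPM under DMSO and 15.1, 17.6 and 13.5 CPM under palbociclib (log2 change 0.18, SE 0.12, edgeR adjusted p = 0.349).

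**Figure D5:**
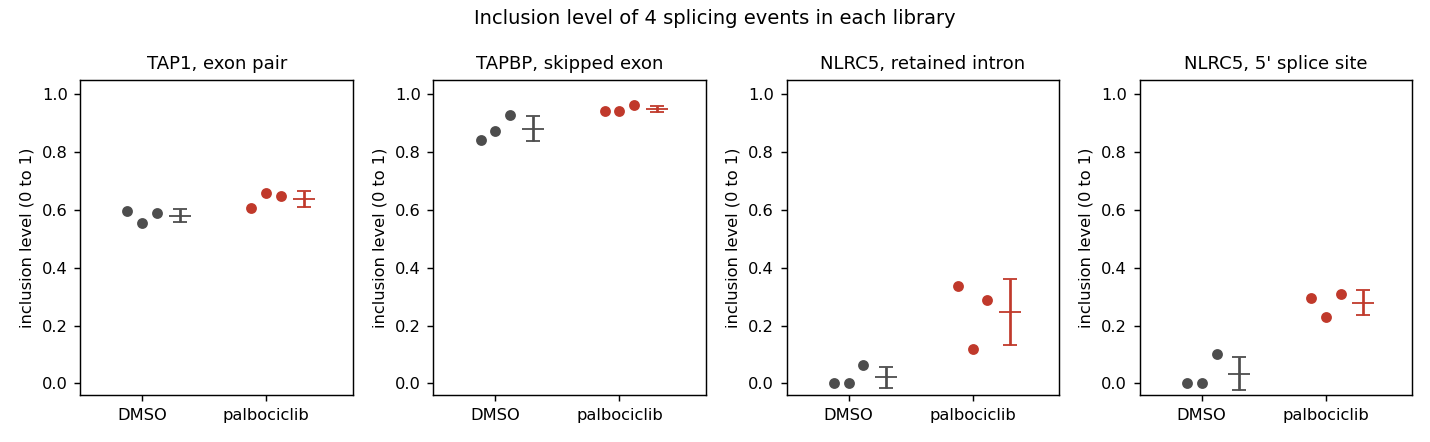
Inclusion level (vertical axes, 0 to 1, from the authors' tables) of 4 events in each RNA library, DMSO in grey and palbociclib in red, replicates 1 to 3 from left to right, with the mean and 1 SD (n = 3) beside each group. The 4 events were picked for a small p or FDR, so that their groups are apart is no separate result. Only the TAP1 event was among the 21 tested, of which 2 had groups apart. The share over all events was not computed. The NLRC5 levels rest on a mean of 10.5 and 9.5 reads per library.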

How the data were processed

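RNA was sequenced in 6 libraries and open chromatin in 6 others, grouped by the labelled treatment. RNA levels were FPKM as deposited by the authors; the submitters' processing notes name fastp 0.23.2, Salmon 1.10.2, STAR 2.7.10b, SAMtools 1.16 and DESeq2 1.44.0 for RNA, without roles. The authors' deposited DESeq2 table holds a mean normalized signal, log2 changes, standard errors and a Wald score, p-values and adjusted p-values. The authors' rMATS tables hold read counts per form, inclusion levels, p-values and an FDR. Peak counts were made by the authors with featureCounts 2.0.6 on 1 shared peak set, per the file headers, on GRCh38; whether they are reads or pairs is not given in the sources used here.

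RNA was tested with limma 3.58.1 on log2(FPKM + 1), peaks and splicing with edgeR 4.0.16 (R 4.3.3), each over the whole table with Benjamini-Hochberg adjustment (splicing within event type). Scripts were tested on simulated data. The 9 genes, the lists and the tests were chosen with earlier results of these data known. Every one of the 9 genes is named; of each other list, up to 4 called genes by size of change and every immunoproteasome gene; of peaks, promoter and called ones; of splicing events, the smallest p per gene. The 3 events called in the authors' deposited table, RFX5, IRF1, IFNAR2, TAPBPL and the peaks inside NLRC5 and at PSMB8 were singled out after their values were seen. No label says that a replicate number marks a shared origin, and same-numbered RNA libraries deviated together with correlations of 0.106, -0.005 and 0.088, ATAC-seq libraries with 0.005, 0.039 and -0.025, so no pairing was used. Some genes of the lists are not reported here. Alternatives covered pseudocount, filters, scaling, tools, peak window, a replicate block and leaving out each library.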

Additional observations from a re-analysis of the deposited data

How the results depend on the processing

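Between 3 and 6 of the 9 class I genes rose over the 12 alternatives and none fell. HLA-C, HLA-E and TAPBP passed in all 12. Scaling mattered most: quantile normalization moved the median change of all genes from 0.00 to 0.06 on the log2 scale and centring on the median gene to 0.10, and genes called higher and lower went from 3312 and 3628 to 4588 and 2856 and to 5468 and 2465. HLA-F then passed under both (0.18 and 0.17) and HLA-B under centring (0.14). The log2 change of TAP2 turned to 0.036 and 0.030 under these scalings, and that of B2M to 0.027 under centring. Genes of the other lists called higher numbered 16 to 27 over the 12 alternatives (20 in the fit reported). The 27 were under centring and the 16 without palbociclib replicate 1. Genes of these lists called lower numbered 3 to 8 (6 in the fit reported), with 3 under centring and 8 with the replicate block. With a library left out they numbered 3 to 6, the 3 without DMSO replicate 2. For peaks, scaling by library totals gave 2573 higher and 2030 lower against 2061 and 2464, DESeq2 gave 981 and 1533, and leaving out a library 1103 to 1874 and 1557 to 2176. Peaks at class I genes called higher numbered 0 in DESeq2, 0 within 1 kb and 0 to 1 with a library left out. Peaks called lower numbered 0 to 1 with a library left out. Within 25 kb 28 peaks were linked and 2 were called lower, beside 11.9% of all peaks called in either direction. The 2 lay near HLA-B (chr6:31337138-31337416, log2 change -0.59, edgeR adjusted p = 0.0385) and near NLRC5 (chr16:56964428-56965123, -0.49, adjusted p = 0.00768). The peak near HLA-B was low, at 4.4 CPM under DMSO and 2.9 CPM under palbociclib. The TAP2-linked peak given above was the only other one called. An offset smoothed on abundance turned the TAPBP-linked peaks at chr6:33297454-33298440 to 0.017 and at chr6:33317698-33318367 to 0.0017. With a library left out, changes ranged from -0.018 to 0.139 at chr6:29737891-29738562, from -0.024 to 0.140 at the HLA-F promoter, from -0.129 to 0.019 at the NLRC5 promoter, from -0.0072 to 0.093 and from -0.122 to 0.042 at the TAPBP promoter peaks, and from -0.054 to 0.0084 at chr6:33297454-33298440. The cause was not tested. A replicate block gave 3330 and 3633 genes and 2133 and 2470 peaks, with 4 class I genes higher; libraries did not all correlate best with their own number. Splicing calls over all genes numbered 131, against 253 with the block, 63 without the minor-form minimum, 0 in limma, where none could fall to the class I genes, and 65 to 131 with a library left out; the class I genes had 0 in each. The 3 libraries per group limit the precision, and low read numbers that of NLRC5.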
